A study of Homo sapiens with 18 samples.

Results

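Chromatin accessibility was read at the loci of the TFAP2 family, the 5 genes TFAP2A, TFAP2B, TFAP2C, TFAP2D and TFAP2E, in 3 head and neck squamous cell carcinoma (HNSCC) cell lines. Around these genes the regions were taken by position alone, although the genes and tests were chosen with earlier results of these data known. Every region of the deposited table that overlapped the body of a family gene, extended by 50 kb on both sides, was taken by itself, which gave 34 of 115087 regions. The TFAP2A window held 17 of them, TFAP2C held 7, TFAP2B held 5, and TFAP2D and TFAP2E held 4 each. The windows of TFAP2B and TFAP2D, which are neighbours on chromosome 6, shared 3 regions.

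The established tumour lines SCC1, SCC6 and SCC25 received cetuximab, an antibody that blocks EGFR, at 100 nM every day, or PBS, the vehicle of the untreated controls, and were collected after 5 days. The study asked how early the regulators of EGFR-dependent tumour cells, TFAP2A among them, respond to this blockade and how far lines differ. ATAC-seq served as the readout of open chromatin, since its Tn5 enzyme inserts sequencing adapters where DNA is accessible. There were 3 libraries in each of the 6 groups apart from SCC1 PBS, for which replicates 1 and 3 were used and replicate 2 was not analysed here. Each line stands for itself and not for a group of tumours. The labels do not say whether replicates came from separate cultures, so p-values measure only the spread between libraries.

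The unit is the deposited signal, a normalised read count per region. Reads in regions ranged from 2194851 to 15017130 per library over the 17 libraries, the median region held 7 to 68 reads, and 7.14% to 28.8% of all regions sat at the lowest value, that of 1 read. The members together held 1498 to 9781 reads per library. A log2 change is cetuximab minus PBS on log2(signal + 1), and a region is called when limma with Benjamini-Hochberg adjustment over all tested regions gave an adjusted p under 0.05. Errors of group means are SDs over libraries, and those of log2 values are SEs of the fit. Among squamous markers, a promoter peak was found at KRT5 in 8, KRT14 in 6, KRT6A in 4, TP63 in 7, DSG3 in 5 and CDH1 in 14 of the 17 libraries. PTPRC, CD3E, CDH5 and MLANA had none, PDGFRB had it in 1 and the collagen gene COL1A1 in 14.

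TFAP2 genes encode the AP-2 transcription factors, which bind GC-rich DNA as dimers through a basic helix-span-helix domain. AP-2alpha (TFAP2A) and AP-2gamma (TFAP2C) act in ectoderm, epidermis and neural crest, and in epithelial tumours they are known as regulators of receptor tyrosine kinase genes such as ERBB2. AP-2beta (TFAP2B) acts in neural crest and kidney, and AP-2delta (TFAP2D) and AP-2epsilon (TFAP2E) are better known from the nervous system. Regions are named here by the nearest family gene and the distance in kb of their midpoint from the start of its canonical transcript, with negative values upstream.

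TFAP2A lies on the reverse strand of chromosome 6 (10393419 to 10419892, GRCh37), TFAP2D and TFAP2B on the forward strand of the same chromosome (50681239 to 50740746 and 50786436 to 50815332), TFAP2C on chromosome 20 (55204362 to 55214339) and TFAP2E on chromosome 1 (36038915 to 36060929). The sequences of 6 regions that the results turn on follow, each read from the forward strand of GRCh37 as a stretch of at most 300 bases that lies outside UTRs and was placed to hold the most matches, those to TFAP2 and AP-1 sites first, and as near to the middle of the region as that allowed. The first 3 are described below for a change with cetuximab or a difference between lines, and the last 3 come from the promoters and the distal region on which TFAP2A and TFAP2C accessibility is read. Capitals mark matches, on either strand, to a TFAP2 site (GCCNNNGGC), an AP-1 site (TGACTCA), a TEAD site (GGAATGT) or a forkhead site (TGTTTAC).
TFAP2B -32.7 kb, chr6:50753757-50754056: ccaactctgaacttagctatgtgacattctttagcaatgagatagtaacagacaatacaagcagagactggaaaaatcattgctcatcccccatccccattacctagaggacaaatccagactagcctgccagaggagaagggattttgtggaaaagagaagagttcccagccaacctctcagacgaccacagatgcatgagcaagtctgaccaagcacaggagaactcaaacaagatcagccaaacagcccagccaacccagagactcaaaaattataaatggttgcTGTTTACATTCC
TFAP2A -16.5 kb, chr6:10431643-10431942: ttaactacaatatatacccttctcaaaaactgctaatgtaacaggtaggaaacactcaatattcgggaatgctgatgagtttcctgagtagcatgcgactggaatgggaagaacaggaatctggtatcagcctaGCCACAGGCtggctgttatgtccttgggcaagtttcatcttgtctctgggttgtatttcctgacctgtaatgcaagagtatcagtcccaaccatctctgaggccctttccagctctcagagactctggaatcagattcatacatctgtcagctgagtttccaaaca
TFAP2B +31.6 kb, chr6:50818032-50818331: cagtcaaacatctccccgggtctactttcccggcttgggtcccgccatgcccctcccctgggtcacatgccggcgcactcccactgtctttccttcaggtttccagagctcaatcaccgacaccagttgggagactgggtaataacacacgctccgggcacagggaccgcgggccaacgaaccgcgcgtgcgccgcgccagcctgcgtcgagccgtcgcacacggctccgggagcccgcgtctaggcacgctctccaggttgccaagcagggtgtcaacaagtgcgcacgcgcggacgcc
TFAP2A +10.9 kb, chr6:10404253-10404552: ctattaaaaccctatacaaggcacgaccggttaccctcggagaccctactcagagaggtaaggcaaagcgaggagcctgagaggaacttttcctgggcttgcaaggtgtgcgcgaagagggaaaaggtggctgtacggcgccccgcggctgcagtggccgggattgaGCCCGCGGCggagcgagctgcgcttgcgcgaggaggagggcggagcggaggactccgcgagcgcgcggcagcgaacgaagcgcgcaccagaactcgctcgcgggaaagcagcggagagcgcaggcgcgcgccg
TFAP2C +0.97 kb, chr20:55205057-55205289: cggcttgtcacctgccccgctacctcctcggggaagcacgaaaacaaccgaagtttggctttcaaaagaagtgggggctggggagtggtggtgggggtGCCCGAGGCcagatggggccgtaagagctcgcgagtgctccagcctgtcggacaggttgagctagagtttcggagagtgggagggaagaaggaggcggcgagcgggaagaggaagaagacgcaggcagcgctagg
TFAP2C -22.5 kb, chr20:55181743-55182042: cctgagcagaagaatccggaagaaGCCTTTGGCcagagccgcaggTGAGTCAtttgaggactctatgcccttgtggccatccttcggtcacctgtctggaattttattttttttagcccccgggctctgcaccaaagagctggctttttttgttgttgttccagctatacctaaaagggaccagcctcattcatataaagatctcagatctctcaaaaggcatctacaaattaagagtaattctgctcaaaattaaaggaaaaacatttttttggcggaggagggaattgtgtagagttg

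In TFAP2B -32.7 kb the capitals near the end are a forkhead match that runs into a TEAD match on the other strand, with the shared letters in both. Of 8240 regions within 10% of its width, 17.6% held the forkhead site and 11.9% the TEAD site. TFAP2A -16.5 kb held a TFAP2 site, as did 13.1% of 12889 regions of like width. TFAP2B +31.6 kb held none of these sites. The TFAP2A promoter at +10.9 kb and the TFAP2C promoter at +0.97 kb each show a TFAP2 site, which 62.4% of 1320 and 26.8% of 8158 regions of like width held. TFAP2C -22.5 kb shows a TFAP2 and an AP-1 site, which 61.7% and 27.8% of 1672 regions of like width held. Outside the printed stretches, TFAP2C +0.97 kb held another TFAP2 match, TFAP2A +10.9 kb a forkhead match (9.47% of like width) and TFAP2C -22.5 kb a TEAD match (13.6% of like width). Grainyhead (AACCNGTT) and RUNX (TGTGGTT) sites were searched on both strands too, and none of the 6 regions shown held one. Of the 34 members, 6 held a TEAD site, 5 a forkhead site, 2 a RUNX site and 0 a grainyhead site, against 8.19%, 7.79%, 9.502% and 3.18% of all 115087 regions, whatever their width. A match describes letters and not binding.

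Over the whole family, 11 of 34 regions (32.4%) held the TFAP2 site, against 14.5% of all regions, and 7 (20.6%) the AP-1 site, against 26.6%. The members were wider than the table as a whole, with a median of 356.5 against 258 bases, and 8 were promoter regions, which lie within 1 kb of a start site of a protein-coding gene. Of these 8, 7 (87.5%) held the TFAP2 site, against 43.5% of the 18203 promoter regions in the table. The 8 were wider, with a median of 675.5 bases against 467 for all promoter regions. In the TFAP2E window 2 of the 8 lay at neighbouring genes. Reference promoter sequences in RefSeq, from 250 bases before to 50 after a start, were matched for TFAP2A, which has a pair of them, TFAP2B, TFAP2D and TFAP2E (read on GRCh38 and found on GRCh37 by sequence). None of these 5 held the TFAP2 or the AP-1 site, which 23.2% and 4.95% of 35116 RefSeq promoters held.

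Start sites were open at TFAP2A and TFAP2C and seldom elsewhere in the family. A peak within 1 kb of a start site was called in 17 of 17 libraries for TFAP2A and for TFAP2C, in 1 for TFAP2B, in 1 for TFAP2E and in 0 for TFAP2D. Both single peaks came from SCC25 PBS libraries. Accordingly, 4 regions of the table were promoter regions of TFAP2A and 2 of TFAP2C, and none belonged to TFAP2B, TFAP2D or TFAP2E. The promoter regions in the TFAP2E window were those of its neighbours KIAA0319L and NCDN (-15.8 kb) and PSMB2 (+68.3 kb). The TFAP2B gene body held 1 region, in exon 7, and the bodies of TFAP2D and TFAP2E held none.

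The TFAP2A promoters were compared per kb of region, because they differ in width. In untreated cells the region at +10.9 kb (chr6:10403861-10404945), over exon 4 and an internal start site, had 597 ± 49.8 per kb in SCC6 (SD, n = 3), 472 ± 17.3 in SCC1 (n = 2) and 351 ± 21.6 in SCC25 (n = 3). The region at the canonical start (-0.191 kb) had 401 ± 94.1 in SCC1, 354 ± 28.4 in SCC25 and 208 ± 41.6 in SCC6. The other start regions had 333 ± 50.5, 289 ± 13.2 and 206 ± 14.4 (-4.27 kb) and 246 ± 14.2, 227 ± 33.1 and 143 ± 17.5 (+2.45 kb) in SCC1, SCC6 and SCC25. The order of the lines thus was not the same at the different TFAP2A starts. The regions at -0.191 and +2.45 kb overlap the antisense transcript TFAP2A-AS1 and that at +10.9 kb starts TFAP2A-AS2, and ATAC-seq does not tell strands apart.

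At +10.9 kb the signal was 526 and 499 in the SCC1 PBS libraries, 695, 589 and 660.2 in SCC6 PBS, and 405, 379 and 359 in SCC25 PBS. No library of a line overlapped those of another. The log2 difference was 0.34 ± 0.09 for SCC6 minus SCC1 (SE, adjusted p 0.00413), -0.43 ± 0.09 for SCC25 minus SCC1 (0.000934) and -0.76 ± 0.08 for SCC25 minus SCC6 (4.81e-07), all by limma. At the canonical start the signal was 164 and 117 in SCC1, 129.6, 131 and 113 in SCC25 and 59.2, 88.3 and 71.8 in SCC6. SCC6 was lower there than SCC1 by a log2 of -0.93 ± 0.19 (adjusted p 0.000665), while SCC25 overlapped SCC1 (-0.16, 0.517).

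**Figure D1:**
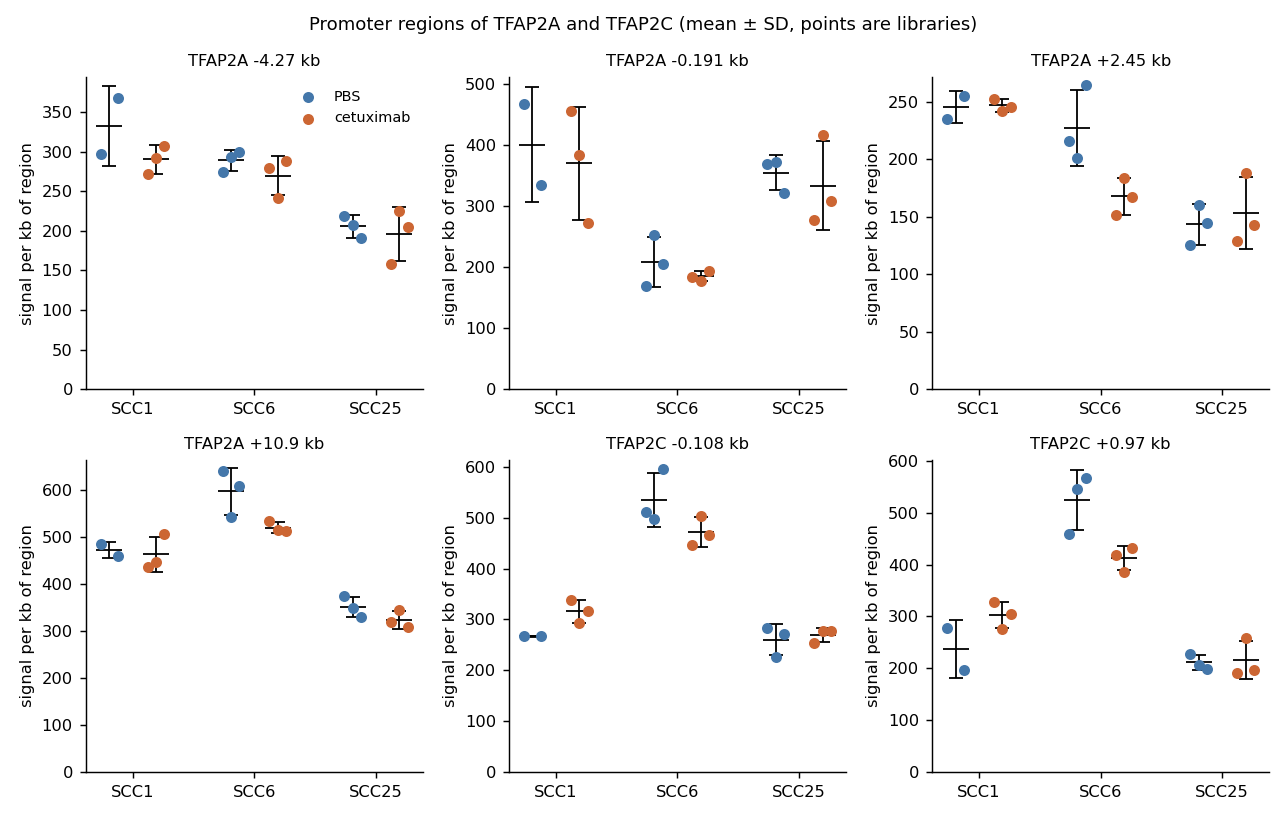
Signal per kb of region (y axis, from 0) at the 4 TFAP2A and 2 TFAP2C promoter regions in the lines SCC1, SCC6 and SCC25, with PBS in blue and cetuximab in orange. Points are libraries and bars are the mean ± SD. At TFAP2C +0.97 kb the SCC6 PBS libraries stand above all others, and the treated SCC6 libraries lie below them.

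The TFAP2C promoter was most open in SCC6. In untreated cells the region at the start (-0.108 kb, chr20:55204069-55204439) had 535 ± 52.7 per kb in SCC6, 267 ± 0.954 in SCC1 and 260.3 ± 30.7 in SCC25, and the region at +0.97 kb (chr20:55205057-55205606) had 524 ± 57.4, 237 ± 56.5 and 211 ± 15.1. At the start the signals were 189.7, 185 and 221 in SCC6, 98.9 and 99.4 in SCC1 and 105, 83.7 and 101 in SCC25. SCC6 lay above both other lines without overlap, and SCC1 and SCC25 overlapped. SCC6 exceeded SCC1 by a log2 of 0.99 ± 0.15 at the start (limma adjusted p 3.96e-05) and 1.15 ± 0.16 at +0.97 kb (1.07e-05). SCC25 differed from SCC6 by -1.03 ± 0.14 (6.07e-06) and -1.30 ± 0.14 (6.62e-07), and from SCC1 by -0.04 (0.827) and -0.14 (0.460).

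The lead of SCC6 over SCC1 was shared by this stretch of chromosome 20. Over the 410 tested regions in the same 10 Mb bin the median log2 difference was 0.84, against -0.06 over all regions. With each library centred on its median in the bin, the difference fell to 0.08 at the start (adjusted p 0.669), 0.25 at +0.97 kb (0.183) and 0.02 at -22.5 kb (0.927), none of which was called. Copy number was not measured, and its part was not tested. Between SCC25 and SCC6 the bin had a median of -0.70, and the regions at +0.97 and -22.5 kb stayed called after centring (-0.64 and -1.03).

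The distal region TFAP2C -22.5 kb (chr20:55181379-55182407) also was highest in SCC6 but, unlike the promoter, separated SCC25 from SCC1. Its signal was 296, 293 and 288 in SCC6 PBS, 167 and 142 in SCC1 PBS and 96.8, 89.4 and 84.8 in SCC25 PBS. The 3 lines did not overlap, with log2 differences of 0.92 ± 0.13 for SCC6 minus SCC1, -0.76 ± 0.13 for SCC25 minus SCC1 and -1.69 ± 0.12 for SCC25 minus SCC6 (limma adjusted p 1.59e-05, 0.000174 and 4.13e-09). Cetuximab left it within the spread of the libraries in each line (-0.15, -0.03 and 0.02 in SCC1, SCC6 and SCC25, adjusted p 0.743, 0.823 and 0.979).

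Between untreated lines most of the family regions differed, at about the rate of the table. Of 32 members tested, 19 were called between SCC6 and SCC1 (9 higher and 10 lower in SCC6), where 61.2% of all tested regions were called. Between SCC25 and SCC1 the count was 20 (8 higher, 12 lower), against 51.3% of all regions, and between SCC25 and SCC6 it was 21 (10 higher, 11 lower), against 68.7% (36.7% higher and 32.1% lower). In total, 27 members were called in at least 1 of these comparisons and 7 in all 3, against 86.2% and 19.6% of all tested regions. In the TFAP2A window 13 of 17 regions were called between SCC25 and SCC1, 11 of them lower in SCC25, and 10 between SCC6 and SCC1, 8 of them lower in SCC6. The background by direction was 23.1% of all regions lower in SCC25 than in SCC1 and 30.5% lower in SCC6 than in SCC1. The 10 Mb bin of TFAP2A had median differences of -0.55 and -0.23 for the same comparisons.

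TFAP2A had the most open surroundings, and several of its distal regions separated the lines. TFAP2A -26.3 kb (chr6:10441196-10441967), the region with the highest mean signal of the family outside promoters, had 277 and 333 in SCC1 PBS, 238, 268 and 256 in SCC6 PBS and 172, 160.1 and 165 in SCC25 PBS. SCC25 was below both other lines, by a log2 of -0.87 ± 0.12 against SCC1 (limma adjusted p 1.93e-05) and -0.61 ± 0.10 against SCC6 (8.58e-05). TFAP2A -37.0 kb (chr6:10452041-10452500) showed the same order, with -0.89 ± 0.15 against SCC1 (0.000149), and lost that call with each library centred in its 10 Mb bin (-0.35, adjusted p 0.0564). Both regions lay in the non-coding gene MIR5689HG and had a peak in all 17 libraries.

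TFAP2A -11.4 kb (chr6:10426434-10426958), upstream of the gene and within 1 kb of start sites of non-coding genes, was high in SCC1. Its signal was 155 and 149.6 in SCC1 PBS, 55.6, 40.8 and 55.5 in SCC6 PBS and 69.0, 66.3 and 61.9 in SCC25 PBS. SCC6 lay below SCC1 by -1.58 ± 0.19 (limma adjusted p 3.51e-06) and SCC25 by -1.20 ± 0.19 (0.000104). Downstream of the gene, TFAP2A +51.0 kb (chr6:10364194-10364474) was nearly closed in SCC6, with 3.62, 4.68 and 4.35, against 36.4 and 44.7 in SCC1 PBS and 41.5, 40.4 and 25.4 in SCC25 PBS. SCC6 differed from SCC1 by -2.99 ± 0.39 (6.55e-06) and SCC25 from SCC6 by 2.79 ± 0.35 (3.12e-06).

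Of the rest of the TFAP2A window, -48.6 kb also was low in SCC6, with 4.01 to 8.70 in PBS against 37.7 to 56.9 in SCC1 PBS and 36.1 to 47.9 in SCC25 PBS. TFAP2A +59.6 kb was highest in SCC25, with 33.2 to 52.8 against 3.62 to 10.9 in SCC6 PBS and 17.9 to 19.5 in SCC1 PBS. These were called between SCC25 and SCC6 (2.56 and 2.68) and between SCC6 and SCC1 (-2.76 and -1.48).

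**Figure D2:**
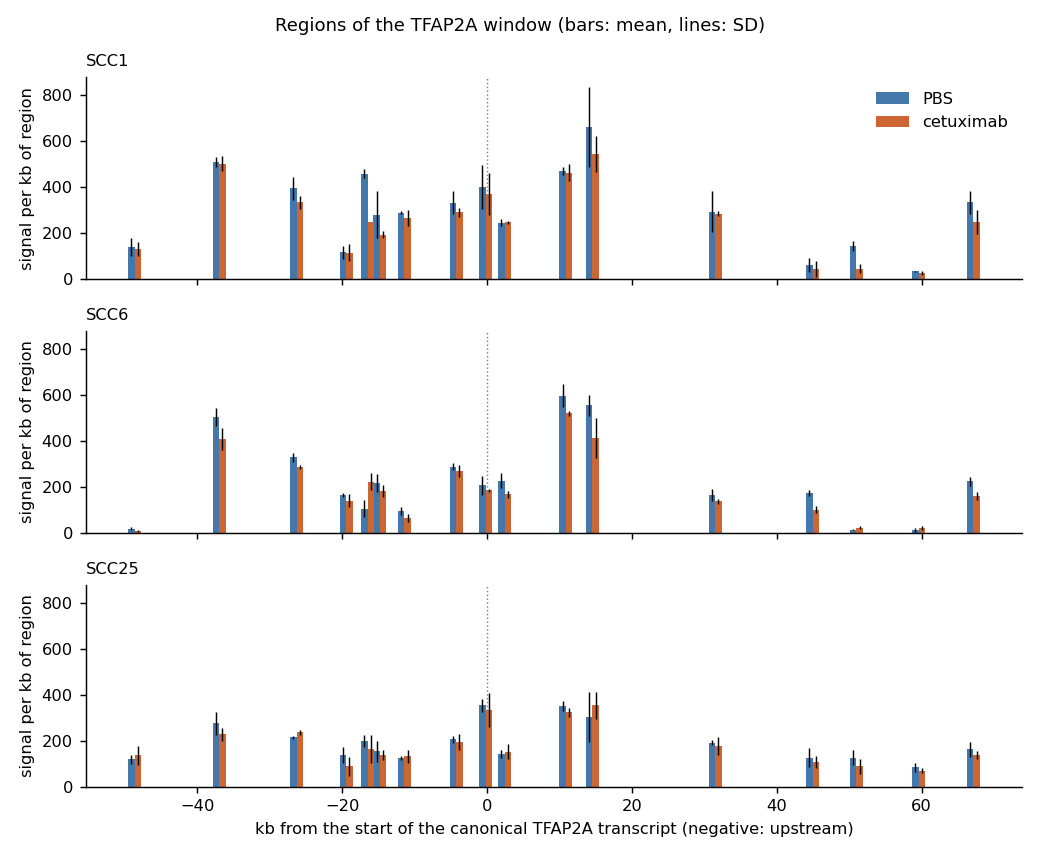
Mean signal per kb (y axis) of the 17 regions of the TFAP2A window at their distance in kb from the canonical start (x axis), for SCC1, SCC6 and SCC25, with PBS in blue, cetuximab in orange and the SD as lines. The region at -16.5 kb is high in SCC1 PBS and low in SCC6 PBS, and SCC6 has almost no signal at +51.0 and -48.6 kb.

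TFAP2B had a region that was open in SCC25 and nearly closed in both other lines. TFAP2B +31.6 kb (chr6:50817790-50818573), beyond the 3′ end of the gene, had a signal of 286, 228 and 242 in SCC25 PBS and 260.1, 251 and 223 in SCC25 cetuximab. It was 14.3 and 19.0 in SCC1 PBS and 4.83, 13.4 and 7.61 in SCC6 PBS, and no library outside SCC25 exceeded 19.0. The log2 difference was 3.85 ± 0.34 against SCC1 (14.4-fold on this scale, limma adjusted p 3.42e-07) and 4.81 ± 0.30 against SCC6 (28.1-fold, 1.52e-09). A peak was called there in 6 of 6 SCC25 libraries and in none of the others.

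TFAP2B +25.2 kb (chr6:50811625-50811907), in exon 7 of the gene, also was highest in SCC25, at a lower level, with SCC6 above SCC1 here. Its signal was 77.3, 75.7 and 52.6 in SCC25 PBS, 27.8, 18.1 and 15.2 in SCC6 PBS and 11.7 and 3.35 in SCC1 PBS, with no overlap of lines. A peak was called in 3 of 3 SCC25 PBS and 1 of 3 SCC6 PBS libraries. SCC25 exceeded SCC1 by 3.20 ± 0.43 (limma adjusted p 2.12e-05) and SCC6 by 1.72 ± 0.39 (0.000982). The 10 Mb bin of TFAP2B had median differences of 0.03 and -0.03 for these comparisons. Neither region changed with cetuximab in SCC25 beyond the spread of its libraries (-0.04, adjusted p 0.924, and 0.18, 0.755).

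TFAP2E -34.6 kb (chr1:36004141-36004403), in coding sequence of the neighbour KIAA0319L, also was open in untreated SCC25 alone. The signal was 26.4, 37.5 and 33.1 in SCC25 PBS against 2.6 and 1.12 in SCC1 PBS and 1.21, 0.669 and 1.09 in SCC6 PBS. All 3 SCC6 PBS libraries were at the floor of 1 read, so no fold is given for that line. SCC25 exceeded SCC1 by a log2 of 3.58 ± 0.30 (limma adjusted p 2.40e-07). The SCC1 PBS library at 1.12 was at this floor too, so the floor and the pseudocount enter the size of that difference. Over other settings it ran from 2.44 to 4.09.

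With cetuximab 10 family regions were called in SCC6, 3 in SCC1 and none in SCC25. In SCC1, 1 of 31 tested members was called higher and 2 lower, against 4.57% and 6.56% of all tested regions. The share of all regions called in SCC1, 11.1%, was 2.24% without SCC1 PBS replicate 1 and 3.63% without replicate 3. In SCC6, 4 of 30 were higher and 6 lower, against 16.9% and 10.6%. Which direction prevailed depended on scaling. After centring libraries on their medians, 4 members were higher and 14 lower in SCC6, against 12.0% and 18.3% of all regions, and in SCC1 1 was higher and 1 lower, against 7.94% and 4.22%. In SCC25, 0 of 33 were called, against 0.315% of all regions (0.0405% higher and 0.275% lower), with 2 at an unadjusted p under 0.05, where 13.2% of all regions were. Without SCC25 PBS replicate 1, 2 or 3, 8, 6 and 0 of all regions were called. edgeR on recovered reads called 1 lower in SCC25 and 1.12% of all regions. For SCC1, SCC6 and SCC25 the median log2 change of the members was -0.08, -0.23 and -0.09, against -0.09, 0.11 and -0.08 over all regions.

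**Figure D3:**
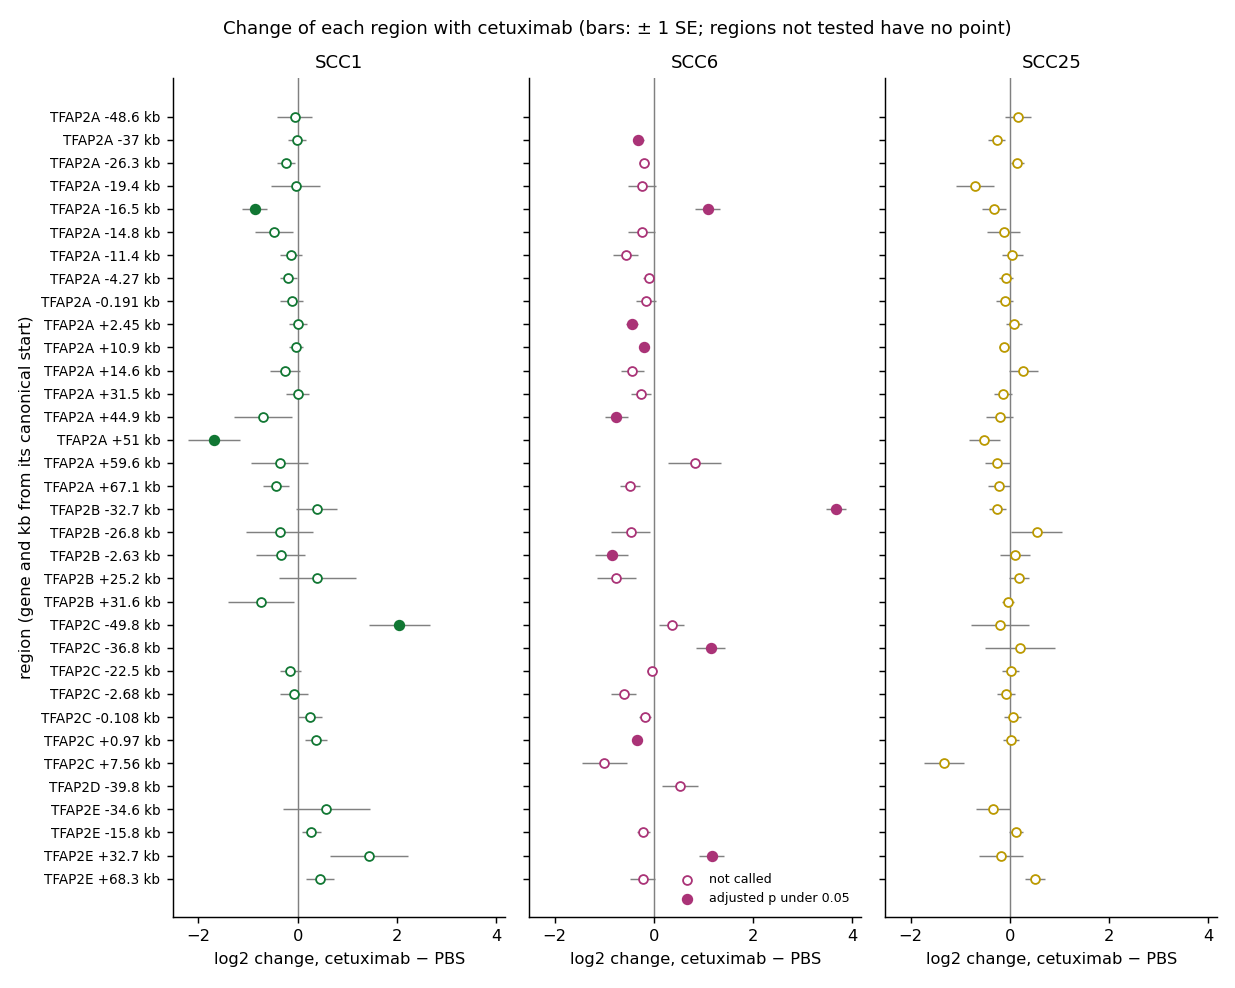
Log2 change with cetuximab (x axis, cetuximab minus PBS) of each family region (y axis) in the 3 lines, with bars for 1 SE, filled points for adjusted p under 0.05 and no point for regions not tested. TFAP2B -32.7 kb in SCC6 stands apart at 3.67, and no point is filled in SCC25.

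The largest response of the family lay between TFAP2D and TFAP2B. In SCC6, TFAP2B -32.7 kb (chr6:50753597-50754137, within the windows of both genes) went from 14.5, 25.4 and 17.4 in the PBS libraries to 269.7, 227 and 249.9 after cetuximab. Every treated library lay far above every untreated library. The log2 change was 3.67 ± 0.21, a 12.7-fold rise (limma adjusted p 3.44e-19), and a peak was called in 3 of 3 treated and 0 of 3 untreated libraries. This is the region whose forkhead and TEAD matches are printed above. The reads behind the values were 12, 38 and 16 without and 267, 245 and 756 with cetuximab.

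The other lines did not show this rise. In SCC1 the region had 28.6 and 23.4 in PBS and 29.2, 25.3 and 53.2 after cetuximab (0.38 ± 0.41, limma adjusted p 0.629). In SCC25 it was open already without cetuximab, with 151, 121 and 110.3 in PBS and 87.2, 106 and 128 after cetuximab (-0.26 ± 0.17, 0.542). Treated and untreated libraries overlapped in both lines. The effect of treatment differed between lines (adjusted p 3.77e-08, limma, F-test over the lines). The interaction was called for 3 of 32 tested members, against 13.2% of all regions (19.8% by edgeR), and 1 of the 3, TFAP2E -34.6 kb, was below the filter in SCC6 alone. Untreated SCC25 exceeded untreated SCC1 by 2.24 ± 0.28 (8.99e-06) and untreated SCC6 by 2.70 ± 0.25 (1.12e-07). Per kb, treated SCC6 reached 460.3 ± 39.1, and SCC25 had 235 ± 38.7 in PBS.

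When treatment was tested over the 3 lines jointly, with a term for the line, this region was the only member called by limma of 32 tested (1.33, adjusted p 0.0410, against 5.14% of all regions called higher and 7.04% lower). edgeR did not call this region but called 2 other members, 1 higher and 1 lower, and 13.3% of all regions. That call rested on SCC6 and on single libraries. Leaving out 1 of 9 libraries (SCC1 cetuximab 3, either SCC1 PBS library or any SCC6 library) put the adjusted p above 0.05, with log2 values of 1.09 to 1.47 and adjusted p-values of 0.0537 to 0.0956. With the replicate number as a block it was 0.0853, with a pseudocount of 5 it was 0.0602 and by edgeR 0.0869. At an unadjusted p under 0.05 there were 8 members, against 29.1% of all regions.

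**Figure D4:**
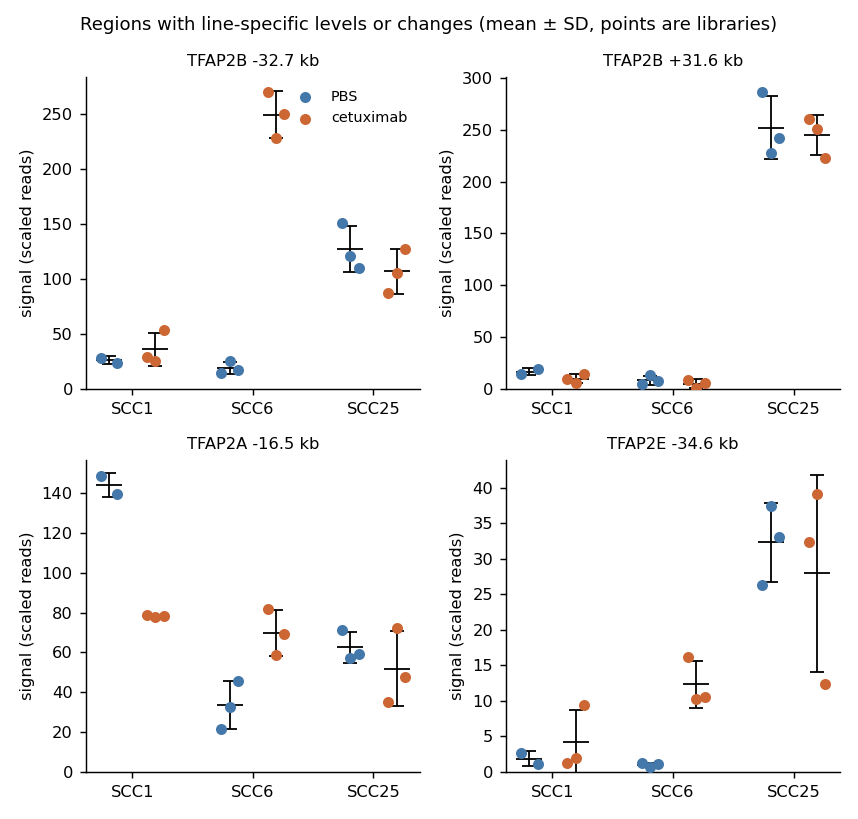
Signal per library (y axis, scaled reads) at 4 regions by line, with PBS in blue, cetuximab in orange and bars for the mean ± SD. TFAP2B -32.7 kb is high in treated SCC6 and in all SCC25 libraries, TFAP2B +31.6 kb and untreated TFAP2E -34.6 kb are high in SCC25, and TFAP2A -16.5 kb falls in SCC1 and rises in SCC6.

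TFAP2A -16.5 kb (chr6:10431636-10431949), upstream of the gene and in the non-coding gene LINC00518, moved in opposite directions in SCC1 and SCC6. In SCC6 the signal rose from 21.7, 32.8 and 45.7 to 81.8, 58.5 and 69.1 (1.09 ± 0.25, limma adjusted p 0.000770). In SCC1 it fell from 148 and 139.6 to 78.7, 77.9 and 78.2 (-0.87 ± 0.25, 0.0105). Treated and untreated libraries did not overlap in either line, while in SCC25 they did (71.2, 57.0 and 59.4 in PBS against 35.2, 72.3 and 47.8, -0.32, 0.593). The interaction had an adjusted p of 0.00147. The treated libraries of SCC1 and SCC6 lay at 58.5 to 81.8, whereas untreated SCC6 was below untreated SCC1 by -2.14 ± 0.26 (3.92e-06). The SCC1 call was lost without SCC1 PBS replicate 1 (-0.83, 0.228) or 3 (-0.91, 0.128), with centring on medians (-0.68, 0.0575), in the 10 Mb bin (-0.60, 0.0930) and with the trend of each library with GC content removed (-0.63, 0.0795).

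The other SCC1 calls lay at the edge of the TFAP2C window and downstream of TFAP2A. Reads were few in PBS at the first and after cetuximab at the second. TFAP2C -49.8 kb (chr20:55154374-55154654), in the non-coding gene LINC01716, had 7.81 and 3.35 in PBS and 25.4, 31.1 and 18.8 after cetuximab (2.05 ± 0.62, limma adjusted p 0.0157), from 3 to 20 reads. TFAP2A +51.0 kb had 36.4 and 44.7 in PBS and 16.5, 15.6 and 6.26 after cetuximab (-1.69 ± 0.52, 0.0169). The groups did not overlap in either region. The first call was lost without SCC1 PBS replicate 3 (1.54, 0.215), SCC1 cetuximab replicate 1 (2.03, 0.0799) or 2 (1.88, 0.0578). The second was lost without SCC1 PBS replicate 1 (-1.83, 0.182) or 3 (-1.55, 0.266) or SCC1 cetuximab replicate 3 (-1.28, 0.0760), with the GC trend removed (-1.39, 0.0657) and with centring in the 10 Mb bin (-1.42, 0.0613).

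In SCC6 the remaining regions called higher were distal. TFAP2E +32.7 kb (chr1:36071369-36071793), in an intron of PSMB2, a proteasome subunit gene, rose from 31.4, 23.4 and 29.4 to 65.7, 56.6 and 69.4 (1.16 ± 0.25, limma adjusted p 0.000271). TFAP2C -36.8 kb (chr20:55167420-55167660), also in LINC01716, rose from 24.2, 16.1 and 17.4 to 46.5, 37.1 and 46.0 (1.14 ± 0.29, 0.00205). In both the groups did not overlap, and no left-out library ended the call (adjusted p up to 0.00471 and 0.0171). With all libraries in 1 fit, however, no region of the TFAP2C window was called higher in SCC6. In SCC25 TFAP2E +32.7 kb had 15.5, 17.3 and 10.2 in PBS and 14.1, 9.12 and 14.2 after cetuximab (-0.18, 0.898). Neither differed between lines in its response by the interaction test (0.132 and 0.576).

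Of the 6 promoter regions of TFAP2A and TFAP2C, 3 were called lower after cetuximab in SCC6 and 3 were not called. All 6 log2 changes were below 0, with a median of -0.19. Among all 16199 promoter regions tested in SCC6, 10.9% were called lower and 5.65% higher, with a median of -0.10, while the median over all regions was 0.11. At TFAP2A +2.45 kb the signal fell from 226, 210.1 and 276 to 159, 192 and 175 (-0.43 ± 0.12, limma adjusted p 0.00550). At TFAP2C +0.97 kb it fell from 253, 300.4 and 312 to 230.3, 213 and 237 (-0.34 ± 0.11, 0.0129). At TFAP2A +10.9 kb it fell from 695, 589 and 660.2 to 579.9, 558 and 555 (-0.20 ± 0.07, 0.0355). In each of these 3 regions every treated library lay below every untreated library. The canonical starts of TFAP2A (-0.15, 0.595) and TFAP2C (-0.18, 0.276) and TFAP2A -4.27 kb (-0.10, 0.494) were not called, and their libraries overlapped.

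These promoter calls were small and did not hold in every setting. With all libraries in 1 fit, or at an adjusted p under 0.01, 1 of 6 was called. With the GC trend removed, 0 of 6 were called, the 3 changes were -0.30 (adjusted p 0.0660), -0.22 (0.132) and -0.11 (0.340), and 5 of 6 promoter changes stayed negative. Centring in the 10 Mb bin also ended the call at TFAP2A +10.9 kb (-0.11, 0.293). Without SCC6 PBS replicate 3 they were -0.32 (0.0797), -0.28 (0.0821) and -0.18 (0.100). TFAP2C +0.97 kb also lost its call without SCC6 PBS replicate 2 (-0.31, 0.0665) or SCC6 cetuximab replicate 2 (-0.30, 0.0721), and TFAP2A +10.9 kb without SCC6 PBS replicate 1 (-0.14, 0.177), SCC6 cetuximab replicate 2 (-0.19, 0.101) or 3 (-0.18, 0.0965).

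In SCC1 the same promoters gave no call, except that TFAP2C +0.97 kb was called higher with centring in the 10 Mb bin (0.67, adjusted p 0.0190). The signal at TFAP2A +10.9 kb was 526 and 499 in PBS and 473, 485 and 549 after cetuximab (-0.03 ± 0.14, limma adjusted p 0.928), and at TFAP2C +0.97 kb it was 152 and 108 against 180.2, 152 and 167 (0.37 ± 0.22, 0.298). In SCC25 the TFAP2A region had 405, 379 and 359 in PBS and 346, 374 and 335 after cetuximab (-0.12 ± 0.10, 0.655), and the TFAP2C region 125, 114 and 109 against 105, 142 and 108 (0.02 ± 0.16, 0.978). Treated and untreated libraries overlapped in each case. The interaction had an adjusted p of 0.694 at TFAP2A +10.9 kb, 0.153 at +2.45 kb and 0.0818 at TFAP2C +0.97 kb, so a difference between lines in the promoter response was not shown.

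Of the TFAP2A window as a whole, 13 of 15 regions tested in SCC6 had a log2 change below 0, with a median of -0.25, where 43.3% of all regions were negative. Of these regions 4 were called lower and 1 higher, against 10.6% and 16.9% of all regions. Regions of the same locus are not replicates of each other. The summed signal of its 17 regions was 2096 to 2209 in SCC6 PBS and 1808 to 1855 after cetuximab, without overlap. In SCC1 the sum was 2541 to 2566 in PBS and 2212 to 2316 after cetuximab, and 16 of 17 regions were negative, against 55.3% of all regions. The SCC1 count depended on the scaling, since centring each library on its median, which moved the median of all regions from -0.09 to 0.10, left 9 of 17 negative and centring in the 10 Mb bin 6 of 17. In SCC6 both left 13 of 15 negative. Centring on medians gave 8 called lower there, against 18.3% of all regions, and centring in the 10 Mb bin gave 2, against 13.6%. With bin centring the median of the window was -0.16 in SCC6. The bin itself had a median change of -0.12 in SCC6 as fitted. The SCC25 sums overlapped (1546 to 1766 in PBS and 1434 to 1715 after cetuximab), and 12 of 17 regions were negative, against 59.1% of all regions.

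The other regions called lower in SCC6 were distal. TFAP2A +44.9 kb (chr6:10370184-10370538) fell from 59.2, 58.2 and 66.3 to 41.4, 31.6 and 35.0 (-0.76 ± 0.24, limma adjusted p 0.0132). TFAP2A -37.0 kb fell from 211, 246 and 239 to 209, 188 and 165 (-0.31 ± 0.12, 0.0403), and TFAP2B -2.63 kb (chr6:50783856-50784059) from 38.7, 30.1 and 21.8 to 14.1, 13.9 and 20.2 (-0.85 ± 0.33, 0.0456). The groups did not overlap in any of them, although the nearest libraries at TFAP2A -37.0 kb were 211 and 209. The first lost its call without SCC6 cetuximab replicate 2 (-0.67, 0.0672) or PBS replicate 3 (-0.70, 0.0608). The second lost it without any 1 of SCC6 cetuximab replicates 2 and 3 and PBS replicates 2 and 3 (-0.23 to -0.32, 0.0860 to 0.178), with quantile normalization (-0.28, 0.0646), with the GC trend removed (-0.24, 0.137) and with centring in the 10 Mb bin (-0.22, 0.160). The third lost it without any 1 of SCC6 cetuximab replicates 1 and 2 and PBS replicates 1 and 2 (-0.66 to -0.83, 0.107 to 0.187).

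TFAP2E -34.6 kb had too few reads in SCC6 for its response to be compared with those of the other lines. In SCC6 it went from 1.21, 0.669 and 1.09, each the floor of 1 read, to 16.2, 10.2 and 10.6, which stand for 16, 11 and 32 reads. It was below the filter in SCC6 alone and entered the fit over all lines, where its interaction was called (adjusted p 0.00528), with SCC25 as the highest line, so that p is not read as a difference in response. In SCC25 it had 26.4, 37.5 and 33.1 in PBS and 32.3, 39.1 and 12.4 after cetuximab (-0.33, limma adjusted p 0.717), and in SCC1 2.6 and 1.12 against 1.27, 1.95 and 9.39 (0.57, 0.750). In SCC6 and SCC1 no library had a peak there, against 4 of 6 in SCC25. The interaction test at TFAP2A -16.5 and TFAP2B -32.7 kb stayed called without any 1 library (adjusted p up to 0.00816 and 1.96e-06).

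The remaining members had no call for cetuximab by limma as fitted, and some gained one with other settings. TFAP2C +7.56 kb, in exon 6 of the gene, had 33.5, 31.7 and 18.7 in SCC25 PBS and 7.03, 10.4 and 14.2 after cetuximab, which did not overlap, with a log2 change of -1.33 ± 0.40 and an adjusted p of 0.138 by limma. edgeR called this region lower in SCC25 with an adjusted p of 0.0494. TFAP2D -39.8 kb, the region nearest to the start of TFAP2D, had 12.0 to 15.7 in SCC6 PBS and 16.5 to 24.2 after cetuximab, against 0.377 to 3.54 in the libraries of both other lines. TFAP2C -2.68 kb had 47.1, 54.2 and 60.9 in SCC6 PBS and 39.4, 27.9 and 38.7 after cetuximab (-0.61 ± 0.25, 0.0581). It was called with centring on medians (-0.78, 0.00994), with quantile normalization (-0.76, 0.0131), by edgeR (-0.65, 0.0367) and without SCC6 cetuximab replicate 3 (-0.68, 0.0423). TFAP2A -26.3 kb was called lower in SCC6 with centring on medians (-0.37, 0.0119) and with the GC trend removed (-0.30, 0.0300).

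Inside TFAP2A, +14.6 kb (chr6:10400690-10400795, exon 6) was short and dense in signal, with 661 ± 176 per kb in SCC1 PBS, 555 ± 44.7 in SCC6 PBS and 303 ± 109 in SCC25 PBS. Its signal was 83.3 and 56.9, 55.6, 64.2 and 56.6, and 44.1, 20.9 and 31.4, so that SCC25 lay below both other lines without overlap (-1.14 and -0.91, limma adjusted p 0.00410 and 0.00568). Downstream, TFAP2A +67.1 kb had 104 and 128 in SCC1 PBS, 71.3, 85.0 and 78.3 in SCC6 PBS and 68.2, 54.8 and 46.7 in SCC25 PBS. All 3 pairs of lines were called there. TFAP2A +31.5 kb, with a peak in every library, was highest in SCC1 (173 and 112 in PBS, against 66.3 to 91.7 in SCC6 and 88.0 to 97.2 in SCC25). TFAP2A -19.4 kb, TFAP2B -26.8 kb and the neighbouring promoters at TFAP2E -15.8 and +68.3 kb were called in none of the comparisons. Of these, TFAP2E +68.3 kb did not overlap in SCC25, with 54.6, 64.2 and 44.96 in PBS and 74.5, 88.6 and 69.1 after cetuximab (0.50, adjusted p 0.286).

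AP-2 factors work with cofactors and on target genes, and 34 such genes, taken from general knowledge of the pathway, were read at the most open of their promoter regions, 32 of which had a promoter region (CRABP2 and MMP2 had none). Such a region lies within 1 kb of any annotated transcript start of the gene. It can be an internal start far from the canonical one, and the distance was not checked for these genes. In SCC1, 2 of 31 tested were higher and 0 lower, where 12.6% of all promoter regions were higher and 2.12% lower. In SCC6, 4 of 30 were higher and 5 lower, against 5.65% and 10.9%. In SCC25 0 of 31 were called, against 0.024% higher and 0.042% lower (limma). At an unadjusted p under 0.05 there were 2 in SCC25 (ERBB3 and ESR1), against 9.16% of all promoter regions. edgeR called 7 higher and 0 lower in SCC1, 4 higher and 8 lower in SCC6, and 1 higher in SCC25 (ERBB3). Over all regions, promoter or not, edgeR called 6.2% higher and 6.6% lower in SCC1 and 15.3% and 13.4% in SCC6. In SCC25 it called 0.437% and 0.685%. The edgeR share over promoter regions alone is not given here. By limma in SCC1, 4.57% of all regions were higher and 6.56% lower, unlike the promoter shares above. The interaction was called for 4 of 32 (IGF1R, KLF4, CDH1 and ESR1), against 13.8% of all promoter regions.

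Among cofactors and regulators, YEATS4, a chromatin reader gene, fell in SCC6 from 210.2, 203 and 218 to 163, 149 and 146 (-0.46, 0.00307). KDM5B, a histone demethylase gene, rose in SCC6 from 23.0, 27.4 and 19.6 to 52.5, 45.5 and 39.3 (0.95, 0.00730), in a region at 0.754 to 2.23 in the other lines.

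Among targets, the receptor genes moved in different directions in SCC6. The region read for IGF1R (chr15:99440088-99440697), at an annotated start that need not be the canonical one, rose from 132, 139.8 and 138 to 208, 188 and 188 (0.51, limma adjusted p 0.00192). EGFR, the target of cetuximab, rose from 144, 139.8 and 162 to 205, 186 and 205 (0.42, 0.00982). ERBB2 fell from 123, 104 and 87.0 to 86.9, 60.3 and 70.1 (-0.53, 0.0287), where the highest treated and the lowest untreated library nearly met. EGFR also was called higher in SCC1 (0.61, 0.0498). Of further targets in SCC6, the basal keratin gene KRT5 was higher (0.93, 0.0125), and the adhesion gene CDH1 (-0.60, 0.0282) and the survival gene BCL2 (-0.72, 0.0352) were lower. Of the 5 epidermal factors, KLF4, a differentiation factor named here after its values were seen, was higher in SCC1 (0.72, 0.0398), and none was called in SCC6. The cofactor gene NPM1 was lower in SCC6 (-0.29, 0.0390).

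Several of these calls depended on the setting. With the GC trend removed, BCL2 (-0.55, adjusted p 0.107), CDH1 (-0.47, 0.0737), ERBB2 (-0.44, 0.0714), NPM1 (-0.19, 0.192), KDM5B (0.55, 0.0998) and IGF1R (0.28, 0.0844) were no longer called in SCC6, nor were EGFR (0.29, 0.427) and KLF4 (0.41, 0.301) in SCC1. With centring on medians the SCC6 calls of EGFR (0.24, 0.166) and IGF1R (0.33, 0.0547) were lost, and with centring in the 10 Mb bin those of EGFR (0.27, 0.120) and NPM1 (-0.14, 0.358), which also was lost with quantile normalization (-0.26, 0.0716). With a pseudocount of 0.5 the SCC1 call of EGFR was lost (0.61, 0.0525), and with no filter that of KLF4 (0.72, 0.0820). Leaving out SCC6 PBS replicate 1 ended the calls of KRT5 (0.73, 0.0684), CDH1 (-0.49, 0.140), ERBB2 (-0.40, 0.160), BCL2 (-0.69, 0.0897) and NPM1 (-0.27, 0.104). KRT5 also was lost without SCC6 cetuximab replicate 3 (0.79, 0.0654). CDH1 was lost without SCC6 cetuximab replicate 1 (-0.47, 0.126) or SCC6 PBS replicate 3 (-0.58, 0.0853), and ERBB2 without SCC6 cetuximab replicate 2 (-0.40, 0.155) or SCC6 PBS replicate 2 (-0.53, 0.0867). BCL2 was lost without SCC6 cetuximab replicate 1 (-0.67, 0.0797) or 3 (-0.60, 0.0897) or SCC6 PBS replicate 3 (-0.52, 0.209), and NPM1 without SCC6 cetuximab replicates 1 or 2 or SCC6 PBS replicates 2 or 3 (-0.25 to -0.33, 0.0500 to 0.131). In SCC1, leaving out PBS replicate 1 or 3 or cetuximab replicate 1 or 3 ended the calls of EGFR (0.50 to 0.69, 0.187 to 0.367) and KLF4 (0.60 to 0.83, 0.114 to 0.396).

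**Figure D5:**
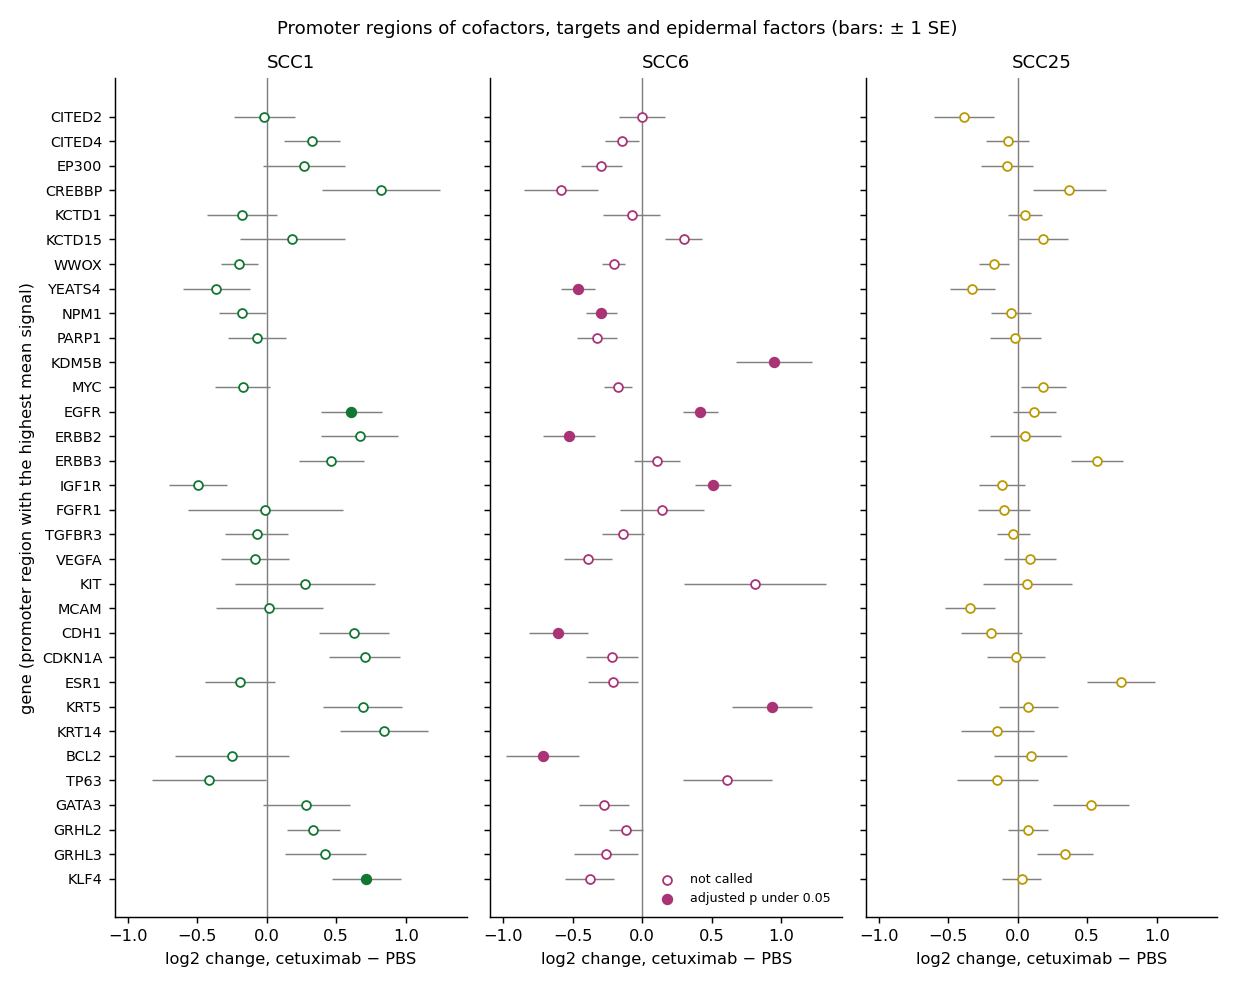
Log2 change with cetuximab (x axis, cetuximab minus PBS) at the promoter region of each listed gene (y axis) in the 3 lines, with bars for 1 SE and filled points for adjusted p under 0.05. Each promoter region lies within 1 kb of an annotated start of its gene, which need not be the canonical one. In SCC6 the changes of KDM5B (0.95) and KRT5 (0.93) are positive and that of BCL2 (-0.72) is negative, and no point is filled in SCC25.

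The promoter regions of other genes whose signal over the 17 libraries was most like TFAP2A +10.9 kb were those of ZNF672 (Pearson's r 0.973 on log2 signal), EXOC8 and SPRTN (0.969), C16orf46 (0.965), CEP295 (0.965) and OXR1 (0.964). Of 18199 promoter regions compared, 315 had an r over 0.9. The libraries share lines, depth and scaling, so these values describe likeness only. Within the family, r with TFAP2A +10.9 kb was 0.870 for TFAP2C +0.97 kb, 0.820 for TFAP2C -0.108 kb, 0.773 for TFAP2A -4.27 kb, 0.619 for TFAP2A +2.45 kb and -0.59 for the canonical TFAP2A start.

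Peaks called in each library were counted over the same regions. Over the members 305 peaks were called in the 17 libraries. No member lacked a peak altogether, and 5 had one in all 17 libraries, namely TFAP2A +31.5, +10.9, -26.3 and -37.0 kb and TFAP2E -15.8 kb. The number of members with a peak ran from 8 to 28 per library, where the lists held 13035 to 101272 peaks in all.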

How the data were processed

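The authors' processing, per the submitters' notes and the study's methods, trimmed reads with Trim Galore 0.5.0, aligned them to GRCh37/hg19 with Bowtie2 2.3.2, used SAMtools 1.9 and Picard 2.18, called broad peaks with MACS2 and counted reads over a consensus set of regions with DiffBind. The versions and cutoffs of MACS2 and DiffBind are not given in the sources used here. The deposited table holds 1 normalised signal per region and library. The deposited peak lists of the authors hold the fold enrichment, a score and a −log10 p-value and −log10 q-value per peak, called in each library. For every value (100%, within 0.001) the signal was a whole multiple of the value of 1 read in its library, so whole reads were recovered. Regions with no read are at the value of 1 read, and depth sets this floor.

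Members were found with GENCODE release 44 (lifted to GRCh37). limma 3.58.1 in R 4.3.3 (trend, robust, two-sided) was fitted on log2(signal + 1) of the whole table, leaving out the 25% of regions lowest in mean, within each line, over all lines with the line as a covariate, for the interaction, and among the PBS libraries. A pseudocount of 1 understates changes of low regions. Regions were named if they were the promoter or other region with the highest mean signal of a gene, were called for cetuximab, or were among the 3 called members with the smallest adjusted p per direction and pair of lines without overlap, and others are given as values. Likeness was Pearson's r with the TFAP2A promoter region of highest signal, for the 5 most similar promoter regions of other genes. The members, gene lists and tests were chosen with earlier results of these data known. A further pathway gene is not reported here. The forkhead, TEAD, grainyhead and RUNX searches were chosen after seeing the data. edgeR 4.0.16 on recovered reads, other scalings, pseudocounts, filters, a block on replicate number and leaving out libraries were alternatives. Scripts in R and Python 3.11.15 (numpy 2.4.6, pandas 2.3.3, matplotlib 3.10.9) were tested on simulated data. All columns of the table were assigned to libraries by name. Libraries of the same replicate number shared little of their deviations (r of -0.0420 to 0.0265).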

Additional observations from a re-analysis of the deposited data

Results flagged for a closer look

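3 regions had an effect of cetuximab that differed between the lines by limma's F-test of the interaction. The adjusted p was 3.77e-08 at TFAP2B -32.7 kb, which rose in SCC6, 0.00147 at TFAP2A -16.5 kb, which rose in SCC6 and fell in SCC1, and 0.00528 at TFAP2E -34.6 kb. The last is not read as a difference in response, since the SCC6 PBS libraries were at 1 read each and the region was below the filter in SCC6 alone. Over the settings tried, the adjusted p at TFAP2A -16.5 kb was 0.000145 to 0.00712.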

How the results depend on the processing

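Among the 34 family regions, the number called in SCC6 was 10 as reported, 5 at an adjusted p under 0.01, 18 (4 higher, 14 lower) with each library centred on its median and 5 (3 higher, 2 lower) with all libraries in 1 fit. Of all regions 27.5%, 16.7%, 30.3% and 17.5% were called in these settings. In SCC1 the number was 3, and 0 at an adjusted p under 0.01 and 1 with the GC trend removed. The shares of all regions were 11.1%, 5.59% and 9.17%. In SCC25 the number was 0, and 1 by edgeR on recovered reads, against 0.315% and 1.12% of all regions. Over all lines the number was 1, and 0 at an adjusted p under 0.01 and 2 with 10 Mb bin centring. It was 2 by edgeR and 0 with the replicate number as a block. The shares of all regions were 12.2%, 3.78%, 12.4%, 13.3% and 4.95%. For the interaction the number was 3, and 9 with centring on medians, 5 with bin centring, 5 with a pseudocount of 5 and 7 by edgeR. The shares of all regions were 13.2%, 16.8%, 11.8%, 15.6% and 19.8%. Of the 305 peaks over members, 109 had a −log10 q of at least 5 and 193 covered at least 50% of the region. Where a value gives no cause, the cause was not tested.

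Leaving out 1 library gave 0 to 2 called members in SCC1 (1 when SCC1 PBS replicate 1 was absent, 0 when replicate 3 was), 5 to 10 in SCC6 (5 without SCC6 cetuximab replicate 2 or SCC6 PBS replicate 3), 0 to 0 in SCC25, 0 to 3 over all lines and 3 to 5 for the interaction (5 without SCC1 cetuximab replicate 2 or SCC1 PBS replicate 1). With 1 library other than SCC1 PBS left out, 6.59% to 14.6% of all regions were called in SCC1 and 19.7% to 29.8% in SCC6. In SCC25 the share was 0% to 0.667%, over all lines 8.57% to 13.1% and for the interaction 10.3% to 16.5%. Between lines the members called were then 16 to 19 (SCC6 and SCC1), 15 to 20 (SCC25 and SCC1) and 19 to 22 (SCC25 and SCC6). Of all regions 56.3% to 61.3%, 43.2% to 54.2% and 63.8% to 65.1% were called.

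Signs turned only for changes that were not called. TFAP2A +10.9 kb in SCC1 was 0.16 with centring on medians, 0.24 with bin centring, 0.034 by edgeR and -0.096 to 0.011 with 1 library left out. TFAP2A -26.3 kb in SCC1 was 0.030 with the GC trend removed and 0.029 with bin centring. TFAP2C -2.68 kb in SCC1 was 0.11 with centring on medians, 0.22 with bin centring and -0.19 to 0.032 with 1 library left out, and in SCC25 it was 0.00087 by edgeR and -0.19 to 0.056. TFAP2C +0.97 kb in SCC25 was -0.028 with the GC trend removed and -0.12 to 0.093 with 1 library left out, and TFAP2E +32.7 kb in SCC25 was -0.39 to 0.012. Of the other values of single regions, 786 kept their side of the threshold, 93 lost it and 7 gained it.

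The replicate numbers are not said to pair the libraries. Same-numbered libraries shared little of their deviations, with r of -0.0420 to 0.0265 over 8 pairs. All 24 pairs, which include these 8, ran from -0.0557 to 0.0763. Deviations were taken from the mean of each small group, so the pairs are not independent and do not settle pairing. The block changed no other count of members by over 1.5 times. Over all regions the block moved the calls in SCC1 from 9613 to 12451 and in SCC25 from 272 to 744. Over all lines it moved them from 10511 to 4271. Depth limits the regions of few reads, and SCC1 PBS rests on 2 libraries.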
